A study of Mus musculus with 28 samples.

Results

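Zswim5, Taok1, Abhd6 and B3gnt7 are 4 protein-coding mouse genes that were picked because their transcripts stood high in single morulae labelled MZKO, in a study of the chromatin protein CTCF after fertilization. They are 4 of the 16745 genes with a row in the morula table and of the 15582 genes with a row in the blastocyst table. They were chosen by their morula values, so their morula levels are a description and carry no test. Only Zswim5 was higher in every MZKO embryo than in every other morula. Taok1 and B3gnt7 were also higher in every embryo labelled del than in every embryo labelled het, and Abhd6 in del embryos lay between the other groups and overlapped both. The 4 genes are therefore called here by their names, and not as genes high in MZKO morulae alone.

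The study measured polyadenylated RNA in whole single embryos of the CD1 strain. The morulae, embryos of compacted cells before a cavity forms, were labelled het (3 embryos), del (4 embryos) and MZKO (6 embryos). The blastocysts, the later stage with a cavity and an outer trophectoderm, were labelled WT_flfl (3 embryos), het (4 embryos), M_KO (4 embryos) and MZ_KO (3 embryos). The labels name the genotypes by these codes alone and give neither the allele nor what drives a deletion, and the tables are named for embryonic day 2.5 (morulae) and 3.5 (blastocysts). The sample titles carry a prefix, which was C50 for every MZKO morula and N2 for every del and het morula, so genotype and prefix cannot be told apart where MZKO is compared with the rest. Blastocysts MZ_KO and M_KO shared the prefix C7, and WT_flfl and het shared N89. Genotype and prefix therefore cannot be told apart either where MZ_KO or M_KO is compared with WT_flfl or het. The 14 blastocysts were in sequencing batch 1 and the 13 morulae in batch 2, so the stages also differ in batch, and the effects cannot be told apart. The labels do not say which embryos share a mother, and p-values measure only the spread between these embryos.

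CTCF is a zinc finger protein that binds a defined DNA motif, halts cohesin as it extrudes chromatin loops, and thereby sets many of the boundaries between chromatin domains. Such boundaries can keep an enhancer from a promoter on the other side. The 4 genes belong to different pathways. Zswim5 encodes a protein with a SWIM zinc finger, a domain shared by a family whose best known member, Zswim8, is a substrate receptor of a cullin-RING ubiquitin ligase. Taok1 encodes a Ste20-type kinase that acts upstream of the p38 and JNK stress kinases, on the microtubule regulators of the MARK family and on the Hippo kinases. Abhd6 encodes a membrane-bound serine hydrolase that breaks down monoacylglycerols, including the endocannabinoid 2-arachidonoylglycerol. B3gnt7 encodes a Golgi enzyme that adds N-acetylglucosamine to galactose in the growing chains of keratan sulfate and poly-N-acetyllactosamine.

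In the GENCODE M21 annotation of GRCm38, Zswim5 (ENSMUSG00000033948) lies on the forward strand at chr4:116877376-116989264. Taok1 (ENSMUSG00000017291) lies on the reverse strand at chr11:77529162-77607815. Abhd6 (ENSMUSG00000025277) lies on the forward strand at chr14:8002902-8056763, and B3gnt7 (ENSMUSG00000079445) on the forward strand at chr1:86302832-86307305. The 4 genes thus lie on 4 different chromosomes, and their promoters are shown because all 4 were higher in every MZKO than in every het morula. The sequences come from RefSeq windows of build GRCm38.p6, and all 4 genes matched a window. They run 5′ to 3′ on the gene's strand over the bases before both the RefSeq and the GENCODE start, at chr4:116877152-116877375 (forward strand), chr11:77607816-77608065 (reverse strand) and chr14:8002638-8002887 (forward strand). Capitals mark a GC box in Zswim5 and Taok1, here read on the opposite strand as CCGCCC, and a CCAAT box in Abhd6.
Zswim5: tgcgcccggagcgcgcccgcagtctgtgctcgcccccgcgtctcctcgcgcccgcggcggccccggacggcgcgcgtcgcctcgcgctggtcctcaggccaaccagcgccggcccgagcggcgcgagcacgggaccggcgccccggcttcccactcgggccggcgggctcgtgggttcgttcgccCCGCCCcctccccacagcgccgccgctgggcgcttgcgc
Taok1: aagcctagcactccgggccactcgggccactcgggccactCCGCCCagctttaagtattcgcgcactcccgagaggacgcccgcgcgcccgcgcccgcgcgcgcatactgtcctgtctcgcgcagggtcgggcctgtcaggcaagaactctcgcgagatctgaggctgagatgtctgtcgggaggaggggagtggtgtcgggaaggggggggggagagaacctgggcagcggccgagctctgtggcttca
Abhd6: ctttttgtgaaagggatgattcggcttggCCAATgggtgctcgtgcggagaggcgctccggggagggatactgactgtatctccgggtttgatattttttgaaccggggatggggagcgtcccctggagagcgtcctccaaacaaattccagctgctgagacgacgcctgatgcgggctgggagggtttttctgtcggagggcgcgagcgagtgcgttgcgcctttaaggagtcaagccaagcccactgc

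The RefSeq start of B3gnt7 lies 389 bases inside the GENCODE gene, so its window lies wholly within that gene and is not printed. On both strands of the 250 bases before the RefSeq start, the core letters of the CTCF motif, AGGNGGCGC, were found in 0 of the 4 genes, beside 2.74% of all 32851 windows. The GC box, GGGCGG, was found in Zswim5, Taok1 and B3gnt7, beside 32.7% of all windows. The CCAAT box was found in Abhd6 alone of the 4, beside 33.8% of windows, and the TATA box, TATAAA, in 0, beside 12.4%. No motif was shared by all 4 genes. The windows held 47 CpG dinucleotides in Zswim5, 26 in Taok1, 18 in Abhd6 and 16 in B3gnt7, against a median of 6 over all windows. The Zswim5 window held more CpG than 99.8% of all windows. A match is a description of the letters only, and binding was not measured.

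Zswim5 separated MZKO morulae from both other groups. In CPM, the reads of a gene per 1000000 reads of an embryo on the scale of the deposited table, the het embryos 1, 5 and 7 held 4.0, 12.98 and 0.390, from 62, 232 and 7 reads. The del embryos 2, 3, 4 and 6 held 22.7, 3.97, 5.17 and 24.97 CPM. The MZKO embryos 1, 2, 3, 4, 6 and 8 held 119, 194, 352, 182, 317 and 176 CPM, with a median of 188. Every MZKO embryo was above every del and every het embryo, and del and het overlapped.

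The mean level of Zswim5 was 5.79 ± 6.48 CPM (SD, n = 3) in het, 14.2 ± 11.2 (n = 4) in del and 223 ± 90.5 (n = 6) in MZKO. The ratio of means was 38.6 for MZKO over het, and it ranged from 26.3 without het 7 to 102 without het 5. It was 15.7 for MZKO over del, with a range from 12.7 to 21.01 when each embryo was left out in turn. The ratio of del over het was 2.45, and was 1.67 without het 7 and 6.48 without het 5. Zswim5 was 1 of the 4 genes with no overlap between MZKO and del, and 1.43% of the 9953 genes tested had every MZKO embryo above every del embryo.

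Taok1 was low in het embryos and high in both other groups. The het embryos 1, 5 and 7 held 61.4, 58.0 and 39.1 CPM, and the del embryos 2, 3, 4 and 6 held 211, 126, 195 and 158 CPM. The MZKO embryos 1, 2, 3, 4, 6 and 8 held 130, 246, 317, 258, 210.0 and 371 CPM, with a median of 252. Every del and every MZKO embryo was above every het embryo. The lowest MZKO embryo, number 1, fell among the del embryos, and 4 of the 6 MZKO embryos were above every del embryo.

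The mean level of Taok1 was 52.8 ± 12.0 CPM (SD, n = 3) in het, 173 ± 37.98 (n = 4) in del and 255 ± 83.8 (n = 6) in MZKO. The ratio of means was 4.84 for MZKO over het and 3.27 for del over het, against 1.48 for MZKO over del. Of the morula differences of this kinase, the one between het and del was thus wider than the one between del and MZKO.

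Abhd6 showed a graded order of group means with overlapping neighbours. The het embryos 1, 5 and 7 held 27.7, 57.9 and 24.1 CPM. The del embryos 2, 3, 4 and 6 held 47.8, 72.9, 91.8 and 145 CPM. The MZKO embryos 1, 2, 3, 4, 6 and 8 held 87.0, 163, 268, 120.0, 142 and 133 CPM, with a median of 137. Every MZKO embryo was above every het embryo, del embryo 2 lay below het embryo 5, and del embryo 6 lay above 4 of the 6 MZKO embryos.

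The mean level of Abhd6 was 36.5 ± 18.5 CPM (SD, n = 3) in het, 89.4 ± 41.3 (n = 4) in del and 152 ± 62.2 (n = 6) in MZKO. The ratio of means was 4.16 for MZKO over het, 2.45 for del over het and 1.70 for MZKO over del. Embryo del 6, the highest of its group for Abhd6 and Zswim5, had the smallest read total of all morulae, 1635553, and its values rest on 250 and 43 reads. The part of depth in these values was not tested.

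B3gnt7 was at or near 0 in het embryos. Its reads there were 28, 0 and 1 in embryos 1, 5 and 7, or 1.81, 0 and 0.0556 CPM, and a count of 0 at the depth of embryo 5 allows a level of up to 0.168 CPM (3 reads, counting error only). The del embryos 2, 3, 4 and 6 held 7.24, 19.4, 20.99 and 10.5 CPM. The MZKO embryos 1, 2, 3, 4, 6 and 8 held 12.1, 38.4, 51.1, 33.7, 5.52 and 14.9 CPM, with a median of 24.3. Every del and every MZKO embryo was above every het embryo, while the lowest MZKO embryo, number 6, lay below every del embryo.

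The mean level of B3gnt7 was 0.621 ± 1.03 CPM (SD, n = 3) in het, 14.5 ± 6.70 (n = 4) in del and 25.9 ± 17.8 (n = 6) in MZKO. The ratio of means was 41.8 for MZKO over het and 23.4 for del over het, against 1.79 for MZKO over del. Nearly all of the 29 het reads came from het embryo 1. Of the het morulae, embryo 1 also had the highest summed blood, oviduct and fibroblast markers, given below. Without het embryo 1, 1 read was left in 2 embryos, and the ratios were 932 (95% counting interval 167 to 36823) for MZKO and 521 (93.6 to 20598) for del. These intervals hold only the counting error of that read, and not the spread between embryos. Without het embryo 5 the ratios were 27.9 for MZKO and 15.6 for del.

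**Figure D1:**
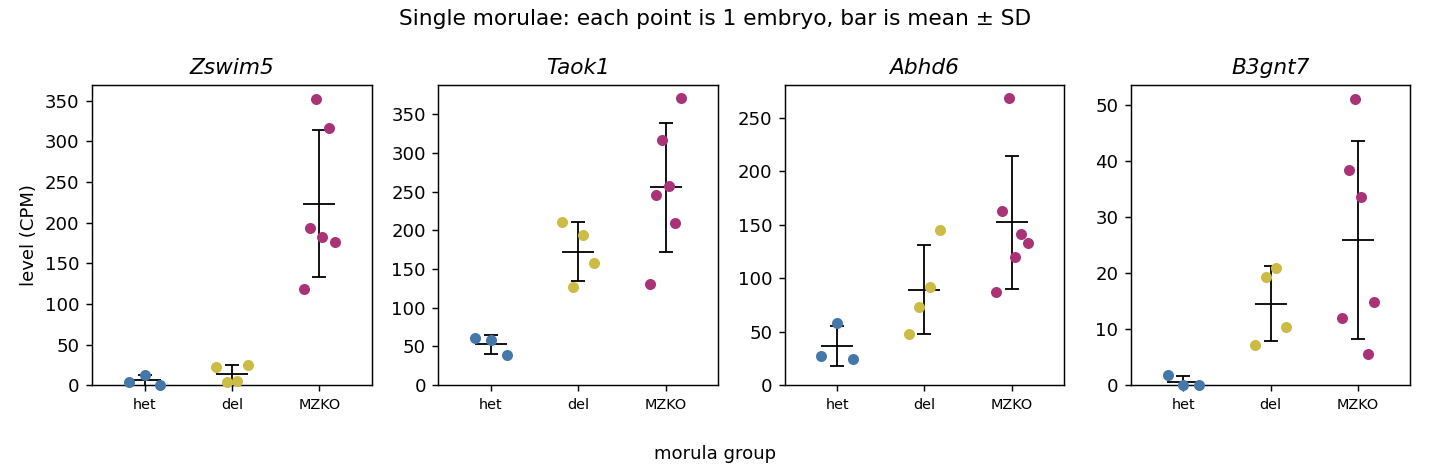
Level of Zswim5, Taok1, Abhd6 and B3gnt7 in CPM (vertical axis, a separate scale for each gene) in single morulae of the groups het (3 embryos), del (4) and MZKO (6); each point is 1 embryo and the bars give the mean and SD. The MZKO points of Zswim5, from 119 to 352 CPM, lie above all others, while Taok1 and B3gnt7 are already higher in del than in het.

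Over the 4 genes, all 4 had every MZKO embryo above every het embryo, beside 2.34% of the 9953 genes tested. Between del and het, 2 of the 4 (Taok1 and B3gnt7) had no overlap in that direction, beside 2.95% of genes. These contrasts chose the members, so the counts describe the choice and nothing is read from them. In the fit across all genes with limma, 0.482% of genes passed an adjusted p of 0.05 for MZKO against het, 0.181% for MZKO against del and 0.01% for del against het. All of the statements on overlap were the same when each embryo was scaled by its own read total.

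The MZKO embryos kept a partly shared order across the 4 genes. Embryo 3 was the highest for Zswim5, Abhd6 and B3gnt7 and was second, after embryo 8, for Taok1. Embryo 1 was the lowest for Zswim5, Taok1 and Abhd6. It was the embryo in which the deposited scale departed most from the read total, by a factor of 1.17, and its Zswim5 level by read total was 139 CPM, still below the other 5 MZKO embryos. Of the MZKO morulae, embryo 1 also had the highest summed oviduct, blood and fibroblast markers and the lowest sum of preimplantation markers, given below. B3gnt7 departed from this order, since embryo 6, second for Zswim5, was its lowest.

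Ctcf itself was low in both morula groups that carry high Taok1 and B3gnt7. Its level was 38.6 ± 14.6 CPM (SD, n = 3) in het, 2.30 ± 2.68 (n = 4) in del and 4.33 ± 3.601 (n = 6) in MZKO. The embryos ranged from 26.1 to 54.6 CPM in het, from 0 to 5.81 in del and from 0 to 8.68 in MZKO. MZKO differed from het (exact permutation test of the means, two-sided p = 0.0119, the smallest that 6 against 3 embryos allow). The test of MZKO against del gave p = 0.352 (exact permutation, two-sided). The part of the Ctcf level in the values of the 4 genes was not tested. In blastocysts Ctcf was 95.1 ± 6.02 CPM (n = 3) in WT_flfl, 67.5 ± 9.73 (n = 4) in het, 69.5 ± 15.6 (n = 4) in M_KO and 3.62 ± 0.660 (n = 3) in MZ_KO. MZ_KO differed from het and from M_KO (exact permutation test, two-sided p = 0.0286 for each, the smallest that 3 against 4 embryos allow). Against WT_flfl the exact permutation test gave p = 0.1, the smallest that 3 against 3 embryos allow. Every MZ_KO embryo held less Ctcf than every other blastocyst.

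Blastocysts gave a readout of the same genes in embryos outside the contrasts that chose them, although the choice may have drawn on blastocysts too, so a lack of change there is no independent support. Levels across stages come from tables that were scaled separately. In every comparison 4 of 4 genes were tested, and 0 of 4 passed an adjusted p of 0.05 (limma on log2(CPM + 1), Benjamini-Hochberg over 9585 genes). The share of all genes that passed was 13.2% for MZ_KO against WT_flfl, 17.9% against het and 11.8% against M_KO. It was 0.0% for M_KO against WT_flfl, for M_KO against het and for het against WT_flfl, where 494, 638 and 187 genes had an unadjusted p under 0.05. At an unadjusted p under 0.05 there was 1 member in 1 comparison, Taok1 in MZ_KO against het, where 3058 of the 9585 genes (31.9%) were under that limit too. The other MZ_KO comparisons had 2753 genes (28.7%, against WT_flfl) and 2544 genes (26.5%, against M_KO) there and 0 of the 4 members. In the comparisons without MZ_KO, the differences of the 4 genes on the log2(CPM + 1) scale ran from 0.01 (Abhd6) to 0.58 (B3gnt7) for M_KO against WT_flfl, from -0.39 (Abhd6) to 0.41 (Taok1) for M_KO against het, and from -0.19 (Taok1) to 0.60 (Zswim5) for het against WT_flfl.

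Zswim5 was low in all 4 blastocyst groups. It held 4.11, 19.8 and 3.82 CPM in WT_flfl embryos 1, 7 and 9, and 20.4, 11.7, 8.83 and 7.08 CPM in het embryos 3, 5, 6 and 8. It held 16.2, 15.2, 10.2 and 2.88 CPM in M_KO embryos 1, 3, 4 and 5, and 13.04, 24.5 and 21.9 CPM in MZ_KO embryos 2, 6 and 7. The groups overlapped, and 2 of 3 MZ_KO embryos were above every other blastocyst. The difference of MZ_KO from WT_flfl on the log2(CPM + 1) scale was 1.33 (SE 0.64, 95% interval -0.03 to 2.69, limma adjusted p = 0.183). It was 2.02 without WT_flfl 7 (limma adjusted p = 0.0637) and 0.97 without WT_flfl 9. The difference was 0.73 (-0.54 to 2.00) against het and 0.94 (-0.33 to 2.21) against M_KO, the latter 0.46 without M_KO 5. The highest blastocyst value of Zswim5, 24.5 CPM, lay below the lowest MZKO morula value, 119 CPM, on its separately scaled table.

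Taok1 had the smallest standard error of the 4 genes in the blastocyst comparisons. It held 39.1, 44.4 and 47.3 CPM in WT_flfl, 36.4, 49.7, 38.5 and 29.5 in het, 53.2, 56.2, 63.3 and 34.9 in M_KO, and 62.9, 58.4 and 62.3 in MZ_KO. Every MZ_KO embryo was above every WT_flfl and every het embryo, and inside the range of M_KO. The share of all genes with such a separation was not counted in blastocysts, so nothing particular to Taok1 is read from it. The difference of MZ_KO from het was 0.68 on the log2(CPM + 1) scale (SE 0.23, 95% interval 0.18 to 1.17, unadjusted p = 0.0101, limma adjusted p = 0.0542). Without het embryo 5, the highest of its group, it was 0.81 and passed (limma adjusted p = 0.0374), and over all alternatives the adjusted p ranged from 0.0374 to 0.129. The difference of MZ_KO from WT_flfl was 0.48 (-0.04 to 1.01, limma adjusted p = 0.217), and that from M_KO was 0.27 (-0.23 to 0.76), or 0.09 without M_KO 5.

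Abhd6 was near the lower limit of the test in blastocysts, with at least 10 CPM in 5 of 14 embryos. It held 12.0, 3.79 and 7.78 CPM in WT_flfl, 23.1, 3.89, 5.41 and 17.04 in het, 4.66, 9.66, 9.55 and 6.22 in M_KO, and 14.96, 28.6 and 8.33 in MZ_KO. The groups overlapped. The difference of MZ_KO from WT_flfl was 1.01 on the log2(CPM + 1) scale (SE 0.64, 95% interval -0.35 to 2.36, limma adjusted p = 0.324), which leaves both no change and a several-fold increase within the interval. It was 0.58 without MZ_KO 6 and 0.62 without WT_flfl 7.

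B3gnt7 was present in every blastocyst. It held 37.7, 42.9 and 17.6 CPM in WT_flfl, 49.5, 25.3, 45.1 and 65.7 in het, 61.7, 30.3, 46.2 and 52.7 in M_KO, and 20.6, 34.2 and 38.2 in MZ_KO. The difference of MZ_KO from WT_flfl was -0.03 on the log2(CPM + 1) scale (SE 0.39, 95% interval -0.85 to 0.80, limma adjusted p = 0.972), and from het it was -0.54 (-1.31 to 0.24). The lowest of the 14 blastocysts, 17.6 CPM, was above all 3 het morulae, the highest of which held 1.81 CPM, again across separately scaled tables and sequencing batches.

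**Figure D2:**
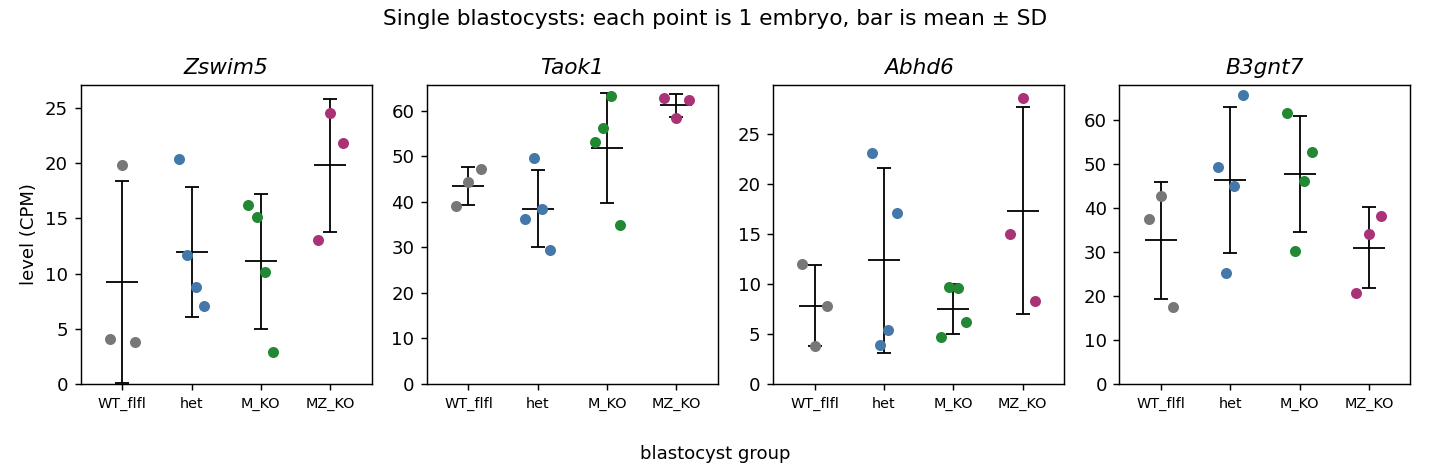
Level of the same 4 genes in CPM (vertical axis, a separate scale for each gene) in single blastocysts of the groups WT_flfl (3 embryos), het (4), M_KO (4) and MZ_KO (3); each point is 1 embryo and the bars give the mean and SD. The 3 MZ_KO points of Taok1, from 58.4 to 62.9 CPM, lie above all WT_flfl and het points, and the groups of the other genes overlap. The share of all genes with such a separation was not counted.

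**Figure D3:**
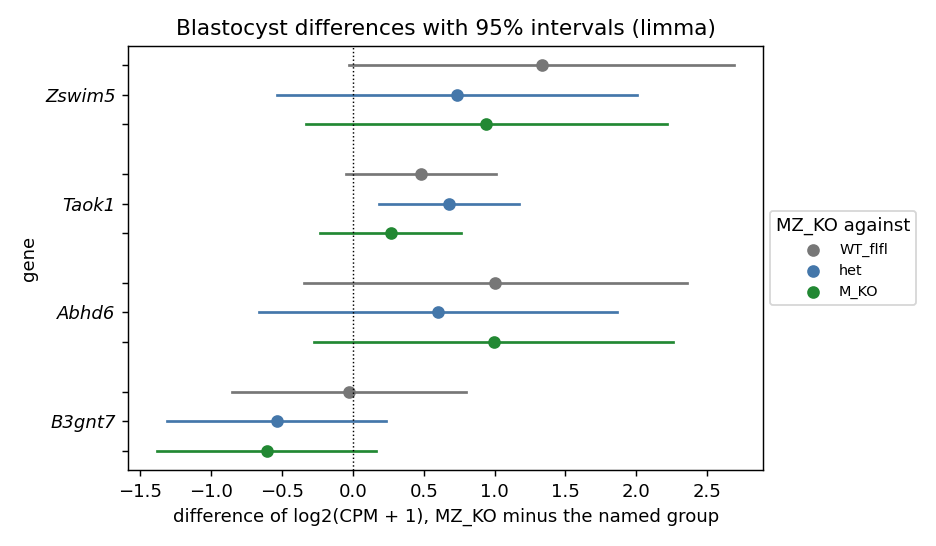
Difference of log2(CPM + 1) between MZ_KO and each other blastocyst group (horizontal axis), with the limma estimate as a point and its 95% interval as a line, for the 4 genes (vertical axis). The interval of Taok1 against het, 0.18 to 1.17, is the only one of the 12 that does not cross 0, and its adjusted p was 0.0542.

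The genes beside the 4 loci did not pass in morulae. Of the 23 nearest neighbours (up to 3 on each side with a row in the morula table), 17 were tested in morulae. By limma 0 of 17 passed in MZKO against het, MZKO against del or del against het, with 1, 3 and 0 at an unadjusted p under 0.05, beside 8.66%, 8.25% and 5.05% of all genes. Urod, an enzyme of heme synthesis whose annotated end lies 0.701 kb from that of Zswim5, held 123 ± 50.3 CPM (SD, n = 3) in het, 111 ± 25.1 (n = 4) in del and 92.0 ± 23.2 (n = 6) in MZKO. Hectd3, a ubiquitin ligase 6.05 kb beyond Zswim5, held 20.9 ± 7.41, 13.2 ± 7.77 and 10.7 ± 5.55 CPM in the same order of groups. Both means were lowest in MZKO, where Zswim5 was highest. Farther out on that side, Eif2b3, a subunit of a translation initiation factor, held 238 ± 104, 253 ± 47.4 and 256 ± 101 CPM.

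On the other side of Zswim5 the DNA repair gene Mutyh held 25.4 ± 15.7 CPM in het (SD, n = 3) and 16.3 ± 9.89 in MZKO (n = 6), and Hpdl held 128 ± 72.8 and 116 ± 57.9 CPM. The processed pseudogene Rpl36-ps8 derives from a ribosomal protein gene, so the split of reads between like copies is uncertain. It held 29.6 ± 19.6 CPM in het, 30.1 ± 21.5 in del (n = 4) and 6.08 ± 4.26 in MZKO. Its log2 difference was -2.03 for MZKO against het (limma unadjusted p = 0.0105, adjusted p = 0.337) and -2.06 for MZKO against del (unadjusted p = 0.00525, adjusted p = 0.351).

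Beside Taok1, Nufip2 held 291 ± 50.8 CPM in het (SD, n = 3) and 335 ± 121 in MZKO (n = 6). Trp53i13 held 9.20 ± 5.31 CPM in het, 3.26 ± 2.73 in del (n = 4) and 12.8 ± 3.496 in MZKO, with an unadjusted p of 0.00733 and a limma adjusted p of 0.379 for MZKO against del. Git1 and Myo18a did not pass either, and Ankrd13b had too low a level to be tested. The pseudogene Gm12734 lies inside Taok1 on the opposite strand and held under 1 CPM in the mean of each group.

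Beside Abhd6, Rpp14, Pxk and Pdhb did not pass, with Rpp14 at an unadjusted p of 0.0224 and a limma adjusted p of 0.499 for MZKO against del, and Gm10044 was not tested. Beside B3gnt7, the nucleolar protein gene Ncl held 1209 ± 194 CPM in het, 1429 ± 212 in del and 1746 ± 465 in MZKO, and Armc9 held 12.4 ± 11.2, 12.4 ± 3.93 and 10.6 ± 19.99 CPM. Ptma held 1628 ± 499 CPM in het and 1680 ± 392 in MZKO, and Gm37914, Gm21972 and C130036L24Rik were too low to be tested. In blastocysts of MZ_KO against WT_flfl, 2 of 14 tested neighbours passed by limma, beside 13.2% of all genes. Pdhb, a pyruvate dehydrogenase subunit, was higher by 0.46 on the log2(CPM + 1) scale (adjusted p = 0.0279), and Hpdl fell by 0.84 (adjusted p = 0.0286).

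**Figure D4:**
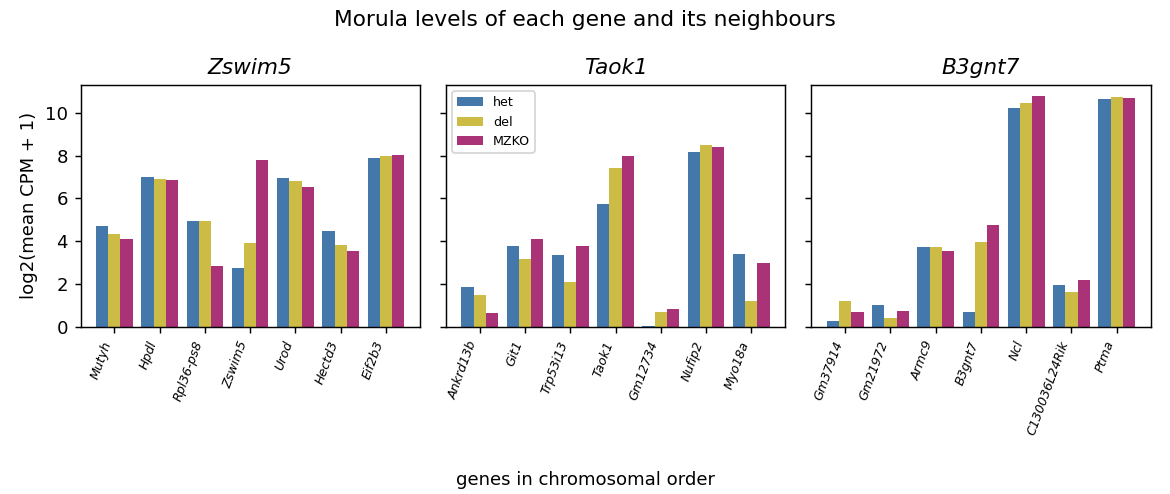
Group means in morulae as log2(mean CPM + 1) (vertical axis) for Zswim5, Taok1 and B3gnt7, each with its nearest neighbours in chromosomal order (horizontal axis), for het (3 embryos), del (4) and MZKO (6); no error is drawn. Zswim5 (5.79, 14.2 and 223 CPM) stands apart from its neighbours, of which Urod 0.701 kb away held 123, 111 and 92.0 CPM.

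The genes whose morula pattern was most like each member were found by the correlation of log2(CPM + 1) over the 13 embryos among 9953 genes. These are descriptions, since the points share the same libraries and groups, and the best of many genes are picked. The genes nearest to Zswim5 were the processed pseudogenes Rpl15-ps2 (r = 0.926) and Rpl3-ps1 (r = 0.925) and the gene of the kinesin-binding membrane protein Ktn1 (r = 0.923). Rpl3-ps1 held 0.0371 ± 0.0643 CPM in het (SD, n = 3), 0.337 ± 0.674 in del (n = 4) and 572 ± 190 in MZKO (n = 6), and Rpl15-ps2 held 0.108 ± 0.186, 0.5003 ± 0.488 and 29.1 ± 10.8 CPM. Both pseudogenes derive from ribosomal protein genes, so the split of reads between like copies is uncertain. Ktn1 held 34.2 ± 19.3, 48.0 ± 10.7 and 128 ± 32.3 CPM.

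The genes nearest to Taok1 were Grhl2 (r = 0.931), an epithelial transcription factor gene, Ly96 (r = 0.925), a co-receptor of Toll-like receptor signalling, and the kinase gene Abl2 (r = 0.915). Ly96 held 5.38 ± 3.20 CPM in het (SD, n = 3), 35.5 ± 4.60 in del (n = 4) and 41.6 ± 16.4 in MZKO (n = 6), and Abl2 held 12.6 ± 1.39, 41.6 ± 17.8 and 51.0 ± 15.4 CPM. In both, as in Taok1, the del mean lay nearer to the MZKO mean than to the het mean. The genes nearest to Abhd6 were Dnajb14 (r = 0.930), a chaperone cofactor, the centrosomal gene Nin (r = 0.923) and Fbxo34 (r = 0.918). Fbxo34, an F-box protein gene, held 52.2 ± 17.7, 107 ± 47.2 and 176 ± 87.0 CPM in het, del and MZKO.

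The genes nearest to B3gnt7 were the transcribed pseudogene Gm18856 (r = 0.931), the phosphate transporter gene Slc20a1 (r = 0.864) and Lmf2 (r = 0.850). Gm18856 held 1.40 ± 0.429 CPM in het (SD, n = 3), 8.56 ± 2.28 in del (n = 4) and 9.05 ± 4.42 in MZKO (n = 6). Slc20a1 held 63.9 ± 6.29, 101 ± 13.4 and 174 ± 42.1 CPM.

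Genes that act with the members, taken from 6 lists of relatives and pathway partners, were read from the same fits. In morulae 0 genes of any list passed by limma in MZKO against het, MZKO against del or del against het. In blastocysts of MZ_KO against WT_flfl the lists held both higher and lower genes, beside 13.2% of all genes and a median log2 difference of -0.05 over all genes tested.

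Around Taok1, the list of TAO kinases, MARK kinases and the stress MAP kinase cascade had 17 genes tested in morulae. For MZKO against het the median difference was -0.01 (all genes -0.02), with 3 genes at an unadjusted p under 0.05 (limma), beside 8.66% of all genes. Taok2 held 72.0 ± 11.6 CPM in MZKO (SD, n = 6), 56.9 ± 18.2 in del (n = 4) and 52.9 ± 32.8 in het (n = 3), and Taok3 held 19.5 ± 12.2, 23.2 ± 15.04 and 22.98 ± 15.3 CPM. Between del and het, where Taok1 had no overlap, the log2 difference was 0.29 (SE 0.43) for Taok2 and -0.02 (SE 0.69) for Taok3, each with a limma adjusted p of 0.999. In MZ_KO blastocysts 3 of 16 passed and all were lower than in WT_flfl, with a list median of -0.31. Mapk9, which encodes the kinase JNK2, fell by 1.75 (limma adjusted p = 0.0037), the transcription factor gene Atf2 fell by 1.32 (adjusted p = 0.0263) and Map3k7, the kinase TAK1, fell by 1.24 (adjusted p = 0.0433).

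The Hippo kinase module had 10 genes tested in morulae. The median was 0.43 for MZKO against het, 0.44 for MZKO against del and 0.05 for del against het. In the same order, 2, 1 and 1 genes were higher at an unadjusted p under 0.05 (limma). Over all genes, 8.66%, 8.25% and 5.05% were under that limit in either direction. In blastocysts of MZ_KO against WT_flfl 0 of 9 passed by limma, with a median of -0.03. There 1 was lower at an unadjusted p under 0.05, beside 28.7% of all genes in either direction.

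Around Zswim5, the SWIM zinc finger family and its cullin ligase partners had 10 genes tested in morulae. Of these 0 had an unadjusted p under 0.05 in any of the 3 comparisons (limma), beside 5.05% to 8.66% of all genes. Zswim6, a close relative, was too low to be tested, at 0.707 ± 1.13 CPM in MZKO (SD, n = 6) and 0.964 ± 1.11 in het (n = 3). In MZ_KO blastocysts 3 of 10 passed by limma, all higher than in WT_flfl, with a list median of 0.39. The cullin gene Cul5 was higher by 1.05 (limma adjusted p = 0.000253), the adaptor gene Eloc by 0.75 (adjusted p = 0.00434) and the RING subunit gene Rbx1 by 0.54 (adjusted p = 0.0144). All 3 are ligase partners, and no SWIM family gene passed.

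Around Abhd6, the list of endocannabinoid synthesis, breakdown and receptors had 8 genes tested in morulae, with medians of -0.07 for MZKO against het, 0.78 for MZKO against del and -0.71 for del against het. Mgll, the main monoacylglycerol lipase, held 12.1 ± 8.21 CPM in MZKO (SD, n = 6), 5.11 ± 2.88 in del (n = 4) and 10.6 ± 17.3 in het (n = 3). Faah, which breaks down anandamide, held 13.5 ± 17.8, 6.43 ± 8.09 and 18.1 ± 8.81 CPM. In MZ_KO blastocysts 3 of 8 passed by limma, all lower than in WT_flfl, with a list median of -1.33. Fabp5, a carrier of fatty acids, fell by 4.66 (limma adjusted p = 3.51e-08), the hydrolase gene Abhd12 fell by 2.31 (adjusted p = 2.82e-06) and Faah fell by 1.62 (adjusted p = 0.0027). Mgll had a difference of -2.07 there (limma adjusted p = 0.15), and Abhd6 did not pass either.

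The ABHD family had 13 genes tested in morulae, with medians of 0.13 for MZKO against het and 0.37 for MZKO against del. In the latter 2 were higher at an unadjusted p under 0.05 (limma), beside 8.25% of all genes in either direction. In MZ_KO blastocysts 1 of 13 passed by limma, Abhd14b, which fell by 2.26 (adjusted p = 0.02), and the list median was 0.04.

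Around B3gnt7, the list of beta-1,3-N-acetylglucosaminyltransferases and of enzymes for poly-N-acetyllactosamine or keratan sulfate had 13 genes tested in morulae. The medians were 0.05 for MZKO against het, -0.05 for MZKO against del and -0.47 for del against het. At an unadjusted p under 0.05 (limma), 1 gene was lower in MZKO against het. There were 3 higher in MZKO against del and 2 lower in del against het. Over all genes, 8.66%, 8.25% and 5.05% were under that limit in either direction. B3gnt2, the main enzyme for poly-N-acetyllactosamine, was too low to be tested, at 1.99 ± 2.00 CPM in MZKO (SD, n = 6), 0.228 ± 0.411 in del (n = 4) and 2.16 ± 0.367 in het (n = 3). In MZ_KO blastocysts 3 of 13 passed by limma, all lower than in WT_flfl, with a list median of -0.58. The sialyltransferase gene St3gal6 fell by 3.26 (limma adjusted p = 0.000943), B3gnt5, which starts lacto-series glycolipids, fell by 2.07 (adjusted p = 0.00915) and the sulfate donor transporter gene Slc35b2 fell by 1.95 (adjusted p = 0.000295). B3gnt7 itself differed by -0.03.

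Read totals ran from 1635553 to 20414013 in morulae and from 7377507 to 27884350 in blastocysts, and 12158 to 16343 genes were detected per embryo. All 10 markers of the preimplantation embryo had a row, and their summed level was 3430 to 6475 CPM in het, 4774 to 5283 in del and 3167 to 4828 in MZKO morulae. Of these markers 0 of 10 passed by limma in morulae, while 3, 1 and 3 had an unadjusted p under 0.05 for MZKO against het, MZKO against del and del against het. Over all genes, 8.66%, 8.25% and 5.05% were under that limit. The trophectoderm gene Gata3 held 60.7 ± 52.0 CPM in het (SD, n = 3), 4.90 ± 3.05 in del (n = 4) and 6.27 ± 4.80 in MZKO (n = 6), and Cdx2 held 53.3 ± 29.4, 9.05 ± 6.80 and 11.1 ± 2.84 CPM. The pluripotency gene Nanog held 62.3 ± 55.9, 56.7 ± 18.2 and 160.0 ± 58.8 CPM, and these 3 were chosen after their values were seen. Other markers of the list went other ways, so no lineage change is read from the 3. In the same order of groups, Pou5f1 held 714 ± 273, 809 ± 185 and 610 ± 167 CPM. Dppa3 held 2627 ± 1209, 3111 ± 326 and 2285 ± 704 CPM, and Tead4 held 125 ± 52.0, 188 ± 44.5 and 184 ± 74.2 CPM. Krt8 (means 381, 127 and 223 CPM) and Krt18 (391, 217 and 202 CPM) were highest in het, as Gata3 was. The part of these markers in the levels of the 4 genes was not tested. The fibroblast list differed between the groups that carry the Zswim5 contrast, with all 6 markers having a row and none at 0 in a whole group. Its sum was 92.4 to 450.2 CPM in MZKO, 1.16 to 47.8 in del and 1.17 to 490.1 in het, so every MZKO embryo was above every del embryo. In MZKO against del 0 of 5 tested markers passed by limma, while 5 of 5 had an unadjusted p under 0.05, beside 8.25% of all genes. The part of the fibroblast markers in the results was not tested. Sums in het, del and MZKO overlapped for oviduct markers (1.34 to 1349, 47.0 to 274 and 114 to 2068 CPM) and for 3 of 8 granulosa or cumulus markers with a row (28.8 to 39.7, 24.2 to 63.3 and 19.7 to 36.6 CPM). Blood markers were higher in every het morula (416 to 16140 CPM) than in every del morula (15.1 to 348 CPM) and ranged from 19.2 to 4157 CPM in MZKO. Het embryo 1, the source of nearly all het B3gnt7 reads, held the highest het sums of fibroblast, oviduct and blood markers. The fibroblast sums of het embryos 5 and 7, 42.5 and 1.17 CPM, lay below every MZKO embryo. MZKO embryo 1 held the highest MZKO sums of the same lists. Its preimplantation sum was the lowest. The part of these embryos' markers in the levels of the 4 genes was not tested. Oocyte transcripts were higher in del (49.4 to 98.1 CPM) than in het (27.4 to 44.3 CPM) and were 20.2 to 54.7 CPM in MZKO, and 2 of 8 transcripts of the 2-cell stage had a row, with sums of at most 27.3 CPM. By limma 0 markers of these lists passed in a morula comparison. In MZ_KO against WT_flfl blastocysts 2 preimplantation markers passed as higher and 2 as lower. From the oviduct list only Sox17 passed, with 8.13 ± 1.71 CPM in MZ_KO and 33.9 ± 8.68 in WT_flfl (limma adjusted p = 0.0366). Ovgp1 and Pax8, also tested, did not pass, so no change in oviduct cells is read from Sox17. Whole embryos were measured, so fewer cells of a type and less RNA per cell cannot be told apart.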

How the data were processed

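Single whole embryos were measured. Values were deposited on a log2 scale, in separate morula and blastocyst tables. Per the labels' protocols, a SMART-Seq ultra low input kit and an Illumina HiSeq instrument were used. Cutadapt 1.14, Bowtie2 2.2.9, RSEM 1.3.1 and the builds GRCm38 and mm10 are given per the submitters' processing notes, without role or order. The authors' values read as log2 CPM after an offset of 0.5 reads, with each table scaled separately, and 100% of them converted back to whole reads (tolerance 0.01 reads). The kit does not mark strand, so overlapping and antisense genes cannot be told apart.

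Of 28 labelled samples, 27 had a column, and 0 columns belonged to none. The repeat library of a blastocyst het was not analysed here. Genes were matched to GENCODE M21 (16731 of 16745 in morulae, 15575 of 15582 in blastocysts). Entries that name no mouse gene (3, in blastocysts) held at most 0.0113% of reads and stayed out of tests. Levels are CPM. limma 3.58.1 (R 4.3.3; lmFit and eBayes with trend, two-sided) was run per stage over all groups on log2(CPM + 1). Genes needed at least 10 CPM in at least 3 embryos, and a Benjamini-Hochberg adjusted p under 0.05 was called. Fold changes on this scale understate changes of low genes. All 4 members passed the filter in both tables, Zswim5 with 9 of 13 morulae and 9 of 14 blastocysts, and B3gnt7 with 8 of 13 morulae. The fit was also run on simulated reads with the same spread setting for all genes, and nothing about the members is read from that. Ctcf was tested by exact permutation (scipy 1.17.1).

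The members, the lists of related genes and the marker lists were chosen with earlier results of these data known. The rule for named genes took the 4 members, up to 4 passing genes per related list with the largest change, Taok2, Taok3, Mgll, Faah, B3gnt2 and Zswim6 whatever their values, the 3 nearest neighbours on each side (1 of which is not reported here by name), and the 3 most correlated genes per member. Alternatives were other pseudocounts (0.5 and 5 CPM), no filter or a minimum of 1 CPM, scaling by read totals, fits of only the groups compared, leaving out each embryo, and a replicate block.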

Additional observations from a re-analysis of the deposited data

How the results depend on the processing

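In blastocysts 0 of the 4 genes passed in any comparison under any alternative, except that leaving out 1 embryo at a time gave 0 to 1 for MZ_KO against het (Taok1, without het 5). As only that Taok1 difference passed, little is read from the fact that no difference that passed changed sign. Differences near 0 did on the log2(CPM + 1) scale when 1 embryo was left out, and ranged from -0.41 to 0.23 for B3gnt7 in MZ_KO against WT_flfl, from -0.37 to 0.34 for Abhd6 in M_KO against WT_flfl (-0.0077 with a pseudocount of 5 CPM), from -0.45 to 0.27 for Zswim5 and from -0.19 to 0.27 for B3gnt7 in M_KO against het. In morulae, a pseudocount of 5 CPM gave a B3gnt7 difference of 2.25 for MZKO against het and 1.74 for del against het. Both were wider with the main pseudocount of 1 CPM, where mean log2(CPM + 1) was 4.42 in MZKO, 3.84 in del and 0.52 in het. The related lists had 0 passing genes in morulae under every alternative. With embryo numbers as a replicate block, 0 members passed in M_KO against het, 0 listed genes in MZKO against del, and over all genes 5 (0 without the block) and 21 (18 without). The titles give no pairing, and same-numbered embryos did not deviate together (correlations of deviations from -0.12 to 0.14 over 4 pairs in morulae and from -0.14 to -0.12 over 2 pairs in blastocysts). Over all genes, the passing count for MZKO against het moved from 48 to 87 without MZKO 1 and 29 without het 7. That for del against het moved from 1 to between 0 and 3. That for MZ_KO moved from 1265 to 828 without WT_flfl 1 and 783 without WT_flfl 7, from 1711 against het to 1072 without MZ_KO 2, and from 1133 against M_KO to 727 without M_KO 1 and 726 without MZ_KO 2. For het against WT_flfl it was 1 without WT_flfl 1 and 0 otherwise. The cause was not tested. Low counts limit the precision of B3gnt7 in het morulae, with 29 reads in all from libraries of 14067868 to 19230067 reads. Depth limits every gene in del 6.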
